A study of Homo sapiens with 12 samples.

Results

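The 34 genes described here make sterols and long-chain fatty acids or control that synthesis, and all 34 were found by symbol among the 43557 genes of the deposited count table. Their levels were read in 12 RNA-seq libraries labelled as the bladder cancer lines T24 and RT4. All 34 passed the filter on low counts that left 23070 genes for testing. Cells build cholesterol from acetyl-CoA, first through mevalonate to isoprenoid units, then through squalene and lanosterol and a chain of demethylations, isomerisations and reductions. Fatty acids are built from the same acetyl-CoA, and are then lengthened by elongases and given double bonds by desaturases. Both routes answer to the SREBP transcription factors, which sit in the endoplasmic reticulum until SCAP escorts them to the Golgi for cleavage, a step that the INSIG proteins hold back when sterol is plentiful.

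The groups were T24 shFTO, T24 shNC, RT4 shFTO and RT4 shNC, with 3 libraries each. T24 is a line of a poorly differentiated, invasive type, and RT4 one of a well-differentiated papillary type. The shFTO libraries carry the treatment label FTO knockdown, FTO being a demethylase that acts on m6A in RNA, and the shNC libraries carry the treatment label none. All 12 share the genotype label homo and the cell type label Bladder cancer. The number of hairpins behind shFTO, the time after transduction, and whether each line was a clone or a pool were not given in the sources used here. Nor is it stated that replicates were grown separately, so the p-values cover only library-to-library spread, which may be technical. Totals lay between 31291047 and 102798895 counts per library. Levels are TMM-scaled CPM (counts relative to the library total), changes are log2 values from edgeR's quasi-likelihood test, and a gene is called at a Benjamini-Hochberg adjusted p under 0.05 over all 23070 genes.

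FTO itself went with its label in T24 and against it in RT4. It had 25.9, 26.3 and 24.2 CPM in T24 shFTO, against 35.4, 36.3 and 33.9 CPM in T24 shNC (log2 change -0.46, SE 0.049, adjusted p = 1.9e-07). In RT4 it had 70.2, 71.3 and 65.2 CPM in the libraries labelled shFTO, against 45, 46.9 and 46.6 CPM in those labelled shNC (log2 change 0.58, SE 0.045, adjusted p = 4.2e-09). The groups did not overlap in either line, and the exact two-sided permutation test over libraries gave p = 0.1, the smallest that 3 against 3 allows. RT4 directions below therefore run from label to label, whatever the state of FTO in those cells.

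Markers of cell types also differed between the 4 groups, and their part in the results below was not tested. Lines are named here by their labels, and whether each group is the labelled line was not tested. The 14 urothelial markers summed to 265 to 274 CPM in T24 shFTO, against 1354 to 1431 CPM in T24 shNC, and to 183 to 189.9 CPM in RT4 shFTO, against 19.9 to 23.2 CPM in RT4 shNC. KRT7 carried much of the sums of T24 shNC (mean 1208 CPM) and RT4 shFTO (143 CPM). It averaged 0.988 CPM in T24 shFTO and 7.47 CPM in RT4 shNC. In T24, 5 of 13 tested urothelial markers were called higher and 7 lower, beside 37.2% and 40.8% of all tested genes. FOXA1 (141 CPM in T24 shFTO, 9.62 CPM in T24 shNC) and GATA3 (12.7 CPM in T24 shFTO, 0.175 CPM in T24 shNC) ran against the sum. In RT4, 6 of the 13 were called higher and 3 lower, beside 38.6% and 40.0% of all tested genes. There FOXA1 (0.0268 CPM in RT4 shFTO, 1.61 CPM in RT4 shNC) and GATA3 (3.01 CPM in RT4 shFTO, 9.06 CPM in RT4 shNC) also ran against the sum. Of the defining ones, KRT20 and KRT5 were at 0 in T24 shFTO and UPK1B and UPK3A in T24 shNC. In RT4, UPK1B, UPK3A and KRT20 were at 0 under both labels, and KRT5 also in RT4 shNC. The 20 hepatocyte markers summed to 29761 to 30842 CPM in T24 shFTO, with 16 of 20 at 10 CPM or more, and to 2843 to 2920 CPM in T24 shNC, with CPS1 alone at that level (2878 CPM) and APOA1, APOH, HP, ITIH1 and ASGR2 at 0. They summed to 9.53 to 11.9 CPM in RT4 shFTO, with FGB and ITIH1 at 0, and to 2.71 to 3.24 CPM in RT4 shNC, with 8 of 20 at 0. Of the 20, 19 were called higher and 1 lower in T24 shFTO, and 12 higher and 1 lower in RT4 shFTO. The 12 fibroblast markers summed to 38.4 to 43.1 CPM in T24 shFTO, with THY1 at 0, against 1521 to 1571 CPM in T24 shNC, with COL1A2 and PDGFRA at 0. In RT4 they summed to 10822 to 11188 CPM in shFTO, with none at 0, against 63.4 to 64.9 CPM in shNC, with LUM and PDGFRA at 0. Adipocyte markers (6 of 7 matched) summed to 140.1 to 152 CPM in T24 shFTO and to 6.22 to 12 CPM in each of the other groups. PLIN4 alone gave 142 CPM of the T24 shFTO value. Leukocyte markers (8 of 10 matched) stayed at or under 41.5 CPM in all 12 libraries. In bulk RNA, fewer cells of a type and less RNA per cell cannot be told apart.

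Sterol and fatty acid genes moved in both lines, and often in opposite ways. In T24 shFTO against T24 shNC, 12 of the 34 rose and 18 fell. Calls were common in this comparison: 78.0% of all tested genes were called, 37.2% higher and 40.8% lower. In RT4 shFTO against RT4 shNC, 24 rose and 7 fell, where 78.6% of all genes were called, 38.6% higher and 40.0% lower. The members' median log2 change was -0.20 in T24 and 0.47 in RT4, beside medians over all tested genes of -0.05 in T24 and -0.0038 in RT4. The share of members called, 88.2% in T24 and 91.2% in RT4, stands near these backgrounds, while the share called higher in RT4, 70.6%, stands above its own. A change of at least 2-fold was called for 11 members in T24, against 48.7% of all genes, and for 12 in RT4, against 48.0%, so large changes were no more common among the members than elsewhere. The groups of a line did not overlap for 30 of the 34 members in T24, against 79.6% of all genes, and for 31 in RT4, against 79.9%. Every called member had the same direction within each of the 3 batches. Groups without overlap must show this however libraries are paired, so it adds no support.

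**Figure D1:**
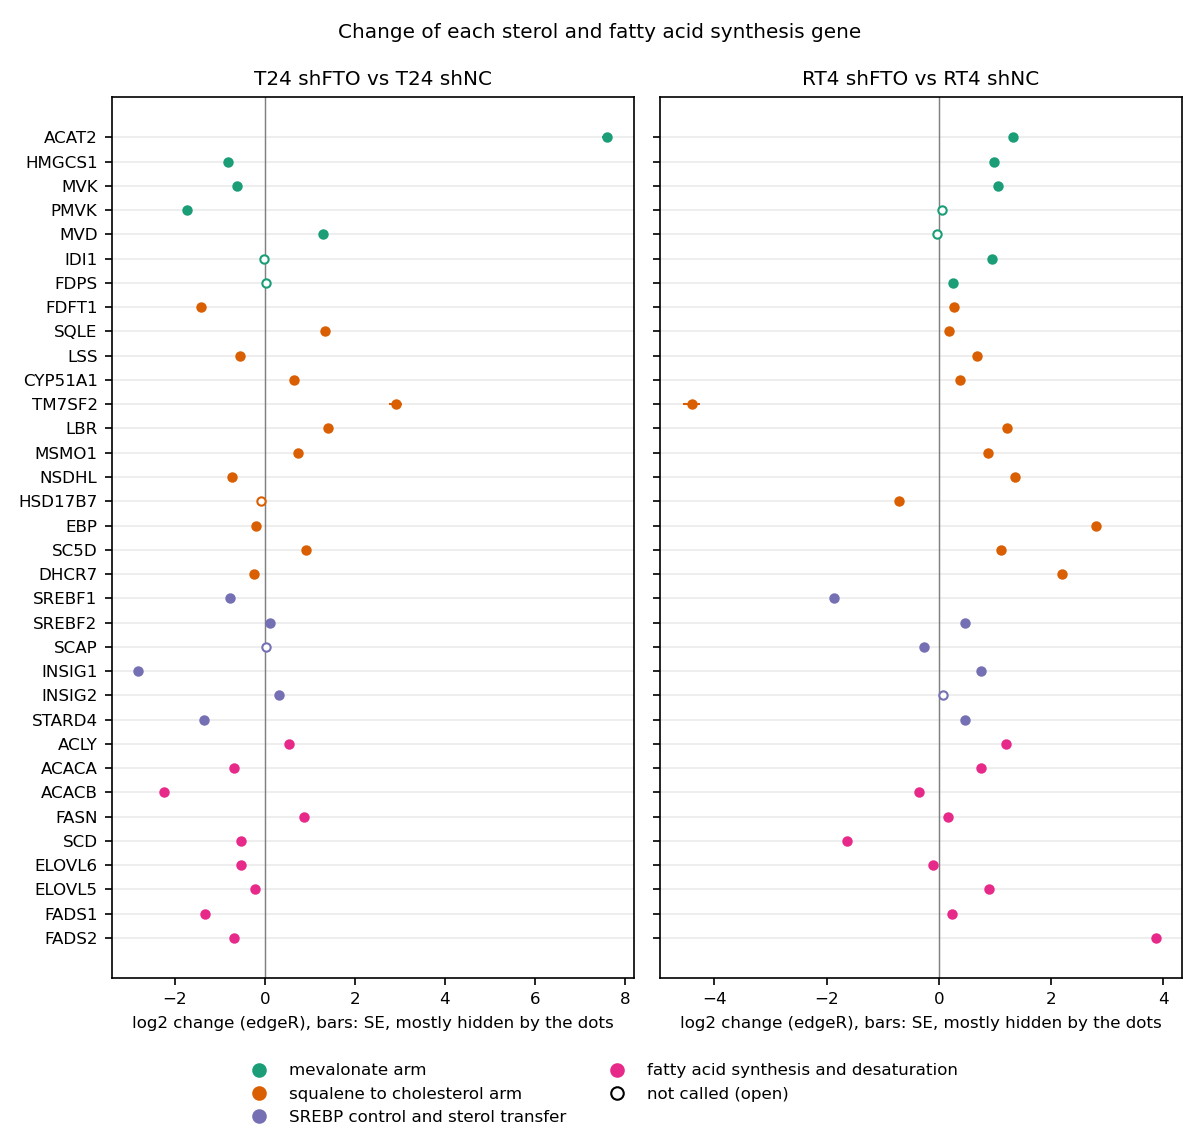
The log2 change of each of the 34 members between shFTO and shNC libraries is plotted for T24 (left) and RT4 (right), with bars for the standard error of edgeR's fit, n = 3 libraries per group. Colours give the role and open circles the members that were not called, 4 in T24 and 3 in RT4.

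The most frequent pattern was lower in T24 shFTO and higher in RT4 shFTO, which 13 of the 34 members showed (38.2%, against 17.4% of all tested genes). They were HMGCS1, MVK, FDFT1, LSS, NSDHL, EBP, DHCR7, INSIG1, STARD4, ACACA, ELOVL5, FADS1 and FADS2. A further 9 rose in both lines (26.5%, against 14.0% of all genes), namely ACAT2, SQLE, CYP51A1, LBR, MSMO1, SC5D, SREBF2, ACLY and FASN. SREBF1, ACACB, SCD and ELOVL6 fell in both (4 of 34, 11.8%, against 15.0% of all genes), and TM7SF2 alone rose in T24 and fell in RT4 (2.94%, against 16.4%). PMVK, MVD and INSIG2 were called in T24 and not in RT4 (8.82%, against 15.2%), and IDI1, FDPS, HSD17B7 and SCAP in RT4 and not in T24 (11.8%, against 15.7%). The count of members called in neither line was 0, against 6.23% of all genes. When the T24 change was tested against the RT4 change as an interaction, 33 of 34 members differed, 12 with the higher and 21 with the lower change in T24, where 75.0% of all genes differed, 36.3% and 38.7% in these directions. The difference was at least 2-fold for 21 members, against 55.3% of all genes. MSMO1 was the exception (log2 difference -0.14, SE 0.08, adjusted p = 0.12), and without T24 shNC replicate 2 it was called too, at an adjusted p of 0.0188. It was also called with the 1 CPM filter (0.0357) and with DESeq2 (0.0476). Among the 33, the call ended without the low-count filter for FDPS (adjusted p = 0.503) and SC5D (0.812, and in 5 of the fits that leave out 1 library), and with libraries thinned to the smallest total for INSIG2 (0.0757).

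**Figure D2:**
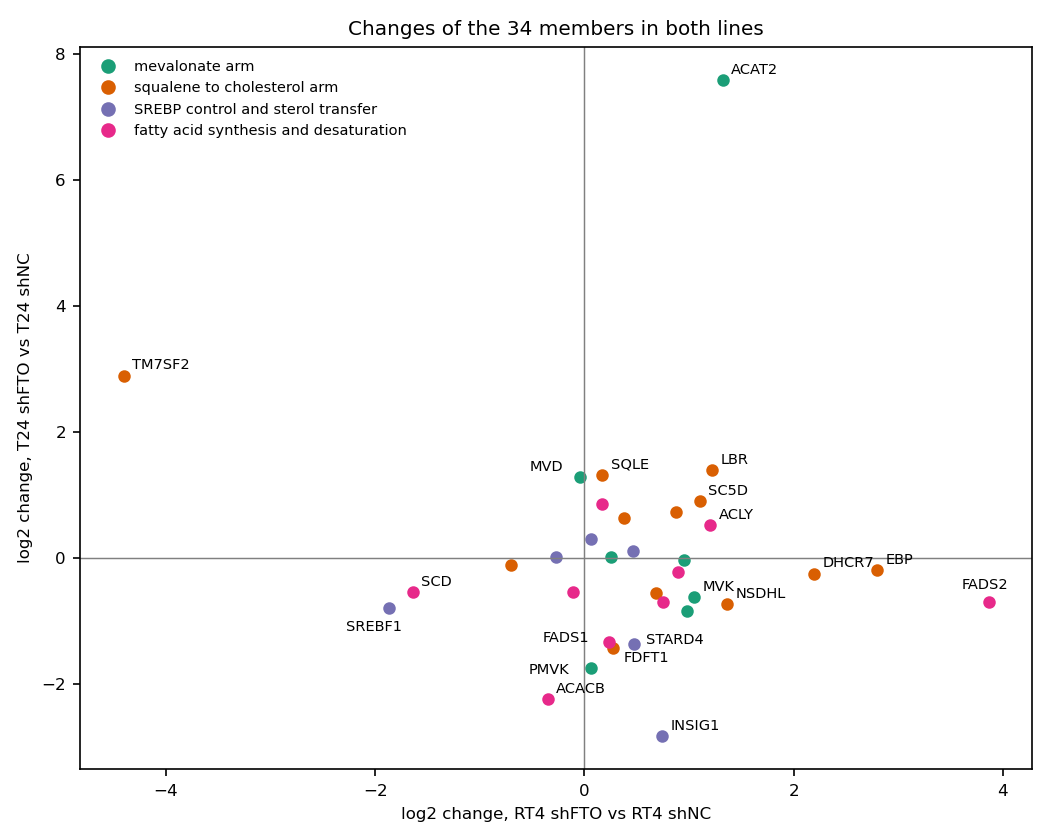
Each dot is one of the 34 members, placed by its log2 change in RT4 (horizontal) and in T24 (vertical), shFTO over shNC in both, and coloured by role. The lower right holds the members that fell in T24 and rose in RT4, and ACAT2, TM7SF2, INSIG1, EBP and FADS2 stand farthest out.

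The mevalonate arm, 7 genes from acetyl-CoA to farnesyl diphosphate, had 2 members higher and 3 lower in T24 shFTO and 5 higher and none lower in RT4 shFTO. Over all tested genes, 37.2% rose and 40.8% fell in T24, and 38.6% rose and 40.0% fell in RT4. ACAT2 encodes the cytosolic thiolase that joins acetyl-CoA units into acetoacetyl-CoA (GENCODE 29, GRCh38, chromosome 6, 159760328 to 159779055, plus strand). Its level was 95.7, 90.1 and 96.8 CPM in T24 shFTO, against 0.569, 0.417 and 0.471 CPM in T24 shNC. Those 3 control values rest on 20, 14 and 22 counts, so ACAT2 was close to absent from the T24 shNC libraries alone. It was 193-fold higher in T24 shFTO (log2 change 7.59, SE 0.091, adjusted p = 1.3e-19). RT4 libraries held it at 68.6, 67.4 and 71.6 CPM in shFTO and 25.5, 27.9 and 29.2 CPM in shNC, a 2.5-fold rise. Neighbouring genes were read too. WTAP averaged 78.9 CPM in T24 shFTO, 63.2 CPM in T24 shNC, 110.5 CPM in RT4 shFTO and 76 CPM in RT4 shNC. MRPL18 averaged 49.2 CPM in T24 shFTO, 52.6 CPM in T24 shNC, 70.1 CPM in RT4 shFTO and 44.2 CPM in RT4 shNC. PNLDC1, near the floor, averaged 0.114 CPM in T24 shFTO, 0.0194 CPM in T24 shNC, 0.2185 CPM in RT4 shFTO and 0.0555 CPM in RT4 shNC. WTAP and PNLDC1 were thus lowest in T24 shNC, as was TCP1, given below, and this was not tested. ACAT2 shares exon bases on the opposite strand with SOD2 (1141 bases) and TCP1 (397 bases), and since the strand used in counting was not given in the sources used here, its level is uncertain to that extent.

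The next enzymes went down in T24 and up in RT4. HMGCS1, the synthase that adds acetyl-CoA to acetoacetyl-CoA, had 140.3, 124 and 140.1 CPM in T24 shFTO, against 246, 246 and 228 CPM in T24 shNC (log2 change -0.83, SE 0.047, adjusted p = 5.7e-11). Its RT4 levels were 92.2, 85.4 and 89.7 CPM in shFTO, against 45.6, 45.2 and 45 CPM in shNC (log2 change 0.98, SE 0.049, adjusted p = 9.9e-12). The order of the 4 groups was thus T24 shNC, T24 shFTO, RT4 shFTO, RT4 shNC, with no overlap between neighbours. MVK, mevalonate kinase, followed the same directions at a lower level, 15.5 ± 0.792 CPM in T24 shFTO and 23.7 ± 2 CPM in T24 shNC (-0.61 in log2), and 23.2 ± 1.05 CPM in RT4 shFTO and 11.2 ± 0.349 CPM in RT4 shNC (1.05 in log2; SD, n = 3). Its exons share 306 bases with MMAB on the opposite strand, and MMAB itself averaged 16.9 CPM in T24 shFTO, 46.3 CPM in T24 shNC, 19.3 CPM in RT4 shFTO and 11.1 CPM in RT4 shNC.

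The kinase and decarboxylase that follow moved in T24 alone, in opposite ways. PMVK, phosphomevalonate kinase, had 10.7, 10.4 and 9.65 CPM in T24 shFTO, against 35.1, 33.4 and 34.4 CPM in T24 shNC, a 3.33-fold fall (log2 change -1.74, SE 0.065, adjusted p = 1.9e-13). MVD, mevalonate diphosphate decarboxylase, had 37.3, 34 and 32.5 CPM in T24 shFTO, against 14.5, 13.3 and 14.6 CPM in T24 shNC, a 2.45-fold rise (log2 change 1.29, SE 0.07, adjusted p = 2.9e-11). In RT4 both groups overlapped, with 16.1 ± 1.03 CPM in shFTO and 15.4 ± 0.11 CPM in shNC for PMVK (adjusted p = 0.38), and 32.7 ± 2.12 CPM in shFTO and 33.6 ± 1.93 CPM in shNC for MVD (adjusted p = 0.58). The change differed between the lines for both genes, by -1.80 for PMVK and 1.33 for MVD (T24 minus RT4, log2).

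The last enzymes of the arm were called in RT4 and not in T24. IDI1, which interconverts the isoprenoid units, had 115, 106 and 111 CPM in RT4 shFTO, against 55.2, 58.2 and 59.1 CPM in RT4 shNC (log2 change 0.95, SE 0.044, adjusted p = 4.4e-12). In T24 it had 60.8 ± 3.21 CPM in shFTO and 61.9 ± 1.21 CPM in shNC, and the groups overlapped. FDPS, the synthase that joins the units into farnesyl diphosphate, had 115 ± 5.98 CPM in RT4 shFTO and 96.3 ± 4.83 CPM in RT4 shNC (log2 change 0.25, SE 0.044, adjusted p = 6.2e-05). In T24 it had 266 ± 5.6 CPM in shFTO and 261 ± 8.25 CPM in shNC, above both RT4 groups. FDPS shares 693 exon bases with RUSC1-AS1 on the opposite strand, which averaged 12.75 to 28.4 CPM over the 4 groups.

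Of the 12 genes from squalene to cholesterol, 6 rose and 5 fell in T24 shFTO, and 10 rose and 2 fell in RT4 shFTO. The shares of all tested genes were 37.2% higher and 40.8% lower in T24, and 38.6% higher and 40.0% lower in RT4. EBP and DHCR7, late enzymes of the route, had the largest rises of this arm in RT4. EBP, the sterol isomerase that moves the double bond in the sterol ring, had 106, 108 and 114 CPM in RT4 shFTO, against 15.7, 16 and 15.4 CPM in RT4 shNC, a 6.95-fold rise (log2 change 2.80, SE 0.049, adjusted p = 1e-17). In T24 its groups were close, 69.7, 67.6 and 67.7 CPM in shFTO and 75.5, 74.5 and 83.9 CPM in shNC, a 1.14-fold fall (log2 change -0.19, SE 0.045, adjusted p = 0.0011). DHCR7, a reductase of the final steps, had 188, 190.2 and 183 CPM in RT4 shFTO, against 43.4, 39.2 and 40.4 CPM in RT4 shNC, a 4.57-fold rise (log2 change 2.19, SE 0.044, adjusted p = 5.7e-17). In T24 it had 66.7, 68.6 and 73.6 CPM in shFTO and 82.5, 82 and 82.7 CPM in shNC, a 1.18-fold fall. For both genes RT4 shNC was the lowest of the 4 groups and RT4 shFTO the highest, with no overlap, so that the controls of the lines also differed (2.31 in log2 for EBP and 1.01 for DHCR7, T24 shNC over RT4 shNC).

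TM7SF2 and LBR both encode sterol C14 reductases, LBR being also the lamin B receptor of the inner nuclear membrane, and they moved differently. TM7SF2 (GENCODE 29, GRCh38, chromosome 11, 65111845 to 65116384, plus strand) had 34.9, 34.8 and 34.7 CPM in T24 shFTO, against 5.18, 3.6 and 5.07 CPM in T24 shNC, a 7.48-fold rise (log2 change 2.90, SE 0.14, adjusted p = 4.9e-10). In RT4 the values were 3.78, 3.25 and 2.01 CPM in shFTO, against 60.8, 64.6 and 65.2 CPM in shNC, a 21.1-fold fall (log2 change -4.40, SE 0.15, adjusted p = 1e-11). High and low libraries were thus exchanged between the lines, and the difference of the changes was 7.30 in log2, the largest among the members (adjusted p = 1.3e-12). Its same-strand neighbour VPS51, with which it shares 16 exon bases, averaged 135.1 CPM in T24 shFTO, 26.6 CPM in T24 shNC, 60.04 CPM in RT4 shFTO and 81.8 CPM in RT4 shNC. LBR rose in both lines, with 320.1, 312 and 307 CPM in T24 shFTO against 121, 121 and 114 CPM in T24 shNC (log2 change 1.40, SE 0.037, adjusted p = 1.9e-15). The RT4 libraries had 162, 162 and 159 CPM in shFTO, against 71.8, 66.3 and 69.6 CPM in shNC (log2 change 1.22, SE 0.037, adjusted p = 1.3e-14). Per kilobase of exon, LBR exceeded TM7SF2 in 3 groups, at 59.6 against 10.2 CPM per kb in T24 shFTO, 22.6 against 1.36 in T24 shNC and 30.6 against 0.884 in RT4 shFTO, whereas in RT4 shNC it had 13.2 CPM per kb and TM7SF2 18.6.

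The entry to the sterol branch was divided in T24. FDFT1, squalene synthase, had 93.5, 95.5 and 92.7 CPM in T24 shFTO, against 244, 253 and 254 CPM in T24 shNC, a 2.67-fold fall (log2 change -1.41, SE 0.037, adjusted p = 1.7e-15). SQLE, the squalene epoxidase next in line, had 87.5, 86.1 and 86.7 CPM in T24 shFTO, against 35.6, 36.1 and 32.3 CPM in T24 shNC, a 2.51-fold rise (log2 change 1.33, SE 0.047, adjusted p = 9.5e-14). Consecutive steps therefore moved in opposite directions, without overlap between the groups. In RT4 both rose by less, FDFT1 with 125 ± 3.5 CPM in shFTO and 103 ± 4.3 CPM in shNC (0.27 in log2), and SQLE with 55.7 ± 1.88 CPM in shFTO and 49.4 ± 2.08 CPM in shNC (0.17 in log2, adjusted p = 0.0024). The RT4 call of SQLE was lost with upper-quartile scaling (adjusted p = 0.237) and without the low-count filter (adjusted p = 0.242).

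The enzymes between lanosterol formation and the last reductions split by line. LSS, which closes the ring to lanosterol, had 57, 52.9 and 57.6 CPM in T24 shFTO against 78.1, 82 and 84.7 CPM in T24 shNC, and 160.0, 162 and 161 CPM in RT4 shFTO against 100.1, 101 and 100.2 CPM in RT4 shNC, so it fell in T24 (-0.55 in log2) and rose in RT4 (0.68 in log2). NSDHL, a dehydrogenase of C4 demethylation, fell to 25.3 ± 0.812 CPM in T24 shFTO, against 41.9 ± 0.762 CPM in T24 shNC, and rose to 49.4 ± 2.26 CPM in RT4 shFTO, against 19.2 ± 0.196 CPM in RT4 shNC. Other enzymes of this stretch rose in both lines. CYP51A1, the lanosterol demethylase, changed by 0.64 in T24 and 0.38 in RT4 (log2), although a same-strand GENCODE gene, AC000120.2, shares 2844 of its exon bases and makes its count uncertain. MSMO1, the C4 methyl oxidase, changed by 0.73 in T24 and 0.88 in RT4, and SC5D, the C5 desaturase, by 0.91 in T24 and 1.10 in RT4. The interaction call of SC5D (adjusted p = 0.02) was lost without T24 shFTO replicate 2 or 3 (adjusted p = 0.0578 and 0.0646), T24 shNC replicate 2 (0.0584), RT4 shNC replicate 2 or 3 (0.0564 and 0.0652), or the low-count filter (0.812). HSD17B7, a ketosteroid reductase, had 19.6 ± 0.901 CPM in T24 shFTO and 20.9 ± 1.99 CPM in T24 shNC with overlap, and fell to 9.77 ± 0.745 CPM in RT4 shFTO, against 15.9 ± 0.301 CPM in RT4 shNC (log2 change -0.70, SE 0.079, adjusted p = 4.6e-07). Its pseudogene copy HSD17B7P2 held 0.269 to 4.41 CPM over the group means, so some reads may have been split between them.

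Among the genes that control the pathway, the transcription factors moved apart from each other in both lines. SREBF1 encodes SREBP-1, known chiefly as the activator of fatty acid genes (GENCODE 29, GRCh38, chromosome 17, 17810399 to 17837002, minus strand). It had 130.2, 135 and 133 CPM in T24 shFTO, against 227, 227 and 231 CPM in T24 shNC (log2 change -0.78, SE 0.035, adjusted p = 2.4e-12). In RT4 it had 119, 125 and 118 CPM in shFTO, against 451, 419 and 448 CPM in shNC, a 3.64-fold fall (log2 change -1.86, SE 0.036, adjusted p = 3.5e-17). Both shFTO groups lay between 118 and 135 CPM, below both control groups. SREBF1 shares 556 exon bases with RAI1 on the opposite strand, and RAI1 averaged 103 CPM in T24 shFTO, 54.5 CPM in T24 shNC, 114.5 CPM in RT4 shFTO and 129.9 CPM in RT4 shNC.

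SREBF2 encodes SREBP-2, known chiefly as the activator of sterol genes, and its changes were small. It had 226, 227 and 232 CPM in T24 shFTO, against 208, 212 and 215 CPM in T24 shNC (log2 change 0.11, SE 0.032, adjusted p = 0.0055), a call that was lost with upper-quartile scaling (adjusted p = 0.919). RT4 libraries held it at 235, 223 and 225 CPM in shFTO, against 165, 159.5 and 169 CPM in shNC (log2 change 0.47, SE 0.032, adjusted p = 8.2e-10). The shFTO groups of both lines overlapped. SCAP, the escort of the SREBPs, had 92.5 ± 0.605 CPM in T24 shFTO and 91.5 ± 1.15 CPM in T24 shNC with overlap, and fell to 76.1 ± 0.96 CPM in RT4 shFTO, against 91.7 ± 4.15 CPM in RT4 shNC (log2 change -0.27, SE 0.036, adjusted p = 3.9e-06).

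The INSIG genes, whose products retain SCAP in the endoplasmic reticulum, differed unequally between the labels. INSIG1, which is itself induced by SREBPs, had 11, 9.67 and 10.6 CPM in T24 shFTO, against 78.2, 71.2 and 73 CPM in T24 shNC, a 7.07-fold fall and the largest of any member in T24 (log2 change -2.82, SE 0.05, adjusted p = 1.2e-17). In RT4 it rose, with 107, 110.4 and 106 CPM in shFTO and 64.6, 64.6 and 64.1 CPM in shNC (log2 change 0.75, SE 0.042, adjusted p = 4.6e-11). T24 shFTO was the one group in which INSIG1 stood near 10 CPM, and the other 3 groups lay between 64.1 and 110.4 CPM. INSIG2 moved little, 19.9 ± 1.02 CPM in T24 shFTO and 16.1 ± 0.634 CPM in T24 shNC (0.31 in log2, adjusted p = 0.0001), and 33.8 ± 0.944 CPM in RT4 shFTO and 32.4 ± 0.946 CPM in RT4 shNC with overlap (adjusted p = 0.27). STARD4, a carrier that moves cholesterol between membranes, had 24.1, 22.5 and 25.7 CPM in T24 shFTO against 64.6, 61.3 and 59.2 CPM in T24 shNC, and 82.4, 81.5 and 80 CPM in RT4 shFTO against 57.8, 60.8 and 57.3 CPM in RT4 shNC. It fell 2.56-fold in T24 and rose 1.39-fold in RT4. STARD4-AS1, whose exons share 124 bases with STARD4 on the opposite strand, averaged 165 CPM in RT4 shFTO against 18.8 CPM in RT4 shNC, and 18.4 CPM in T24 shFTO against 25.7 CPM in T24 shNC, so the RT4 rise of STARD4 is uncertain.

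Promoter windows from RefSeq (GRCh38.p14, from 250 bases before to 50 bases after the start) were matched to 30 of the 34 members, a gene with several windows counting once. They were searched on both strands for the sterol response element TCACNCCAC, the box CCAAT bound by NF-Y, and the GC box GGGCGG bound by SP1, which are the classical elements of SREBP target promoters. CCAAT stood in the windows of 22 of 30 members (73.3%), against 39.7% of all 27305 genes with a window and 42.0% of those tested here. GGGCGG stood in 27 of 30 (90.0%), against 48.3% of all genes and 70.9% of tested ones. TCACNCCAC stood in 1 of 30 (3.33%), against 1.39% of all genes and 1.49% of tested ones, and that window belonged to SREBF2. Only exact matches to these letters inside the window were counted, so elements that differ from them or lie elsewhere were missed. With the 250 bases before the start alone, the counts were 21, 27 and 1 of 30. By pattern, CCAAT stood in a window of 11 of the 12 matched members that fell in T24 and rose in RT4. It stood in 4 of 6 that rose in both lines and in 2 of 4 that fell in both. It also stood in 1 of 3 called in T24 only, in 3 of 4 called in RT4 only, and in TM7SF2. These counts are a description of the letters and no evidence of binding. Matches of different motifs overlapped in 0 of the members' windows, and a window with several matches of a motif was counted once.

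The stretches below are shown because they give examples from members that fell in T24 and rose in RT4 beside members that moved alike in both lines, all carrying the same box. Letters run 5′ to 3′ on the gene's strand. Capitals mark TCACCCCAC in SREBF2 and CCAAT or its reverse complement ATTGG in the others. The SREBF2 stretch also holds ATTGG, left in small letters, 106 to 102 bases before the start. The SREBF2 stretch is chr22:41832912-41833040 on the plus strand, with the element 133 to 125 bases before the start. The INSIG1 stretch is chr7:155297688-155297732 (plus), the STARD4 stretch chr5:111512641-111512716 (minus) and the LSS stretch chr21:46228900-46228944 (minus), all from members that fell in T24 and rose in RT4. ACLY, which rose in both lines, is shown at chr17:41919023-41919107 (minus), and SCD, which fell in both, at chr10:100346984-100347071 (plus).
SREBF2: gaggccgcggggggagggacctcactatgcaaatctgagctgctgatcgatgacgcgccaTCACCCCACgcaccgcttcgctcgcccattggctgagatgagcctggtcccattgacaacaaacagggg
INSIG1: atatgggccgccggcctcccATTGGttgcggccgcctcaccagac
STARD4: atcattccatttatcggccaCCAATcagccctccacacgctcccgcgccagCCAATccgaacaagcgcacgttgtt
LSS: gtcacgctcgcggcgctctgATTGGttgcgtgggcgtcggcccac
ACLY: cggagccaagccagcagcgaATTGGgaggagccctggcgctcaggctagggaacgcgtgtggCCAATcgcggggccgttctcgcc
SCD: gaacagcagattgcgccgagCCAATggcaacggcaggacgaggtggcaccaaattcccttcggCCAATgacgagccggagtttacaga
The same box stands before INSIG1, STARD4 and LSS, before ACLY and before SCD, whose directions across the lines differed. These examples were chosen as carriers of the box, and its relation to direction was not tested.

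Of the 9 genes for fatty acid synthesis, elongation and desaturation, 2 rose and 7 fell in T24 shFTO, and 6 rose and 3 fell in RT4 shFTO. Among all tested genes, 37.2% rose and 40.8% fell in T24, and 38.6% rose and 40.0% fell in RT4. FASN, the fatty acid synthase, had 1306, 1259 and 1251 CPM in T24 shFTO, against 675, 700.4 and 728 CPM in T24 shNC, a 1.81-fold rise (log2 change 0.86, SE 0.032, adjusted p = 2e-13). In RT4 it was lower and nearly level, with 320.2, 320.1 and 329 CPM in shFTO and 289.9, 283 and 291 CPM in shNC (log2 change 0.16, SE 0.032, adjusted p = 0.0002). That RT4 call was lost with upper-quartile scaling (adjusted p = 0.148) and without the low-count filter (adjusted p = 0.24). ACLY, the lyase that supplies cytosolic acetyl-CoA from citrate, rose in both lines, with 447 ± 18.5 CPM in T24 shFTO and 310.1 ± 7.03 CPM in T24 shNC (log2 change 0.53, SE 0.033, adjusted p = 2.3e-10), and 309 ± 2.67 CPM in RT4 shFTO and 134 ± 2.11 CPM in RT4 shNC (log2 change 1.20, SE 0.034, adjusted p = 4.9e-15).

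The acetyl-CoA carboxylases make malonyl-CoA, ACACA in the cytosol for synthesis and ACACB at the mitochondrial surface, where malonyl-CoA restrains fatty acid oxidation. ACACA had 154, 154 and 151 CPM in T24 shFTO, against 241, 248 and 253 CPM in T24 shNC (-0.69 in log2). Its RT4 levels were 140.1, 141 and 141 CPM in shFTO, against 85, 82.1 and 83.4 CPM in shNC (0.76 in log2). ACACA, FASN and ACLY act in one short route, and in T24 ACACA fell while the other two rose. ACACB had 11.1, 11 and 10.6 CPM in T24 shFTO, against 47.3, 54.8 and 51.8 CPM in T24 shNC, a 4.71-fold fall (log2 change -2.24, SE 0.062, adjusted p = 3.4e-15). In RT4 the values were 22.5 ± 0.983 CPM in shFTO and 28.7 ± 0.857 CPM in shNC, a 1.27-fold fall.

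The desaturases FADS2 and SCD, but not FADS1, carried the largest changes of the fatty acid genes in RT4. SCD, which makes monounsaturated from saturated acyl-CoA, had 725, 709.7 and 697 CPM in RT4 shFTO, against 2257, 2214 and 2158 CPM in RT4 shNC, a 3.11-fold fall (log2 change -1.64, SE 0.029, adjusted p = 1.3e-17). In T24 it had 549, 550.3 and 537 CPM in shFTO, against 781, 782 and 806 CPM in shNC, a 1.45-fold fall (log2 change -0.53, SE 0.029, adjusted p = 2.6e-11). SCD was the most abundant member per length in 3 groups, at 147 CPM per kb in T24 shNC, 132 in RT4 shFTO and 412 in RT4 shNC, while in T24 shFTO it had 102 CPM per kb beside 136 for FASN. SREBF1 fell with SCD in both lines, whereas FASN rose in both.

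FADS2 and FADS1, neighbours on chromosome 11 that insert double bonds into polyunsaturated fatty acids, were far apart in the size of their changes. FADS2 (GENCODE 29, GRCh38, 61792980 to 61867354, plus strand) had 341, 350.4 and 330.3 CPM in RT4 shFTO, against 22.4, 24.1 and 23.6 CPM in RT4 shNC, a 14.6-fold rise and the largest of any member in RT4 (log2 change 3.86, SE 0.043, adjusted p = 5.3e-20). In T24 it had 40.6, 42.7 and 43.5 CPM in shFTO, against 66, 68.3 and 70 CPM in shNC, a 1.61-fold fall (log2 change -0.69, SE 0.041, adjusted p = 1e-10). FADS1 (61799625 to 61829318, minus strand) had 125, 123 and 120.4 CPM in T24 shFTO, against 305, 314 and 307 CPM in T24 shNC, a 2.51-fold fall (log2 change -1.33, SE 0.031, adjusted p = 3.6e-16). The RT4 libraries had 169 ± 2.95 CPM in shFTO and 143 ± 2.53 CPM in shNC, a 1.18-fold rise. Their exons share 490 bases on opposite strands, so with the strand setting unknown the small RT4 rise of FADS1 cannot be told apart from reads of FADS2. FADS2 also shares 49 exon bases with FEN1 on the same strand. FEN1 averaged 134.1 CPM in T24 shFTO, 186.6 CPM in T24 shNC, 64.03 CPM in RT4 shFTO and 20.3 CPM in RT4 shNC.

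Both member elongases stayed within 2-fold in both lines. ELOVL5, which lengthens polyunsaturated acids, had 140.0 ± 3.69 CPM in T24 shFTO and 163 ± 2.46 CPM in T24 shNC (log2 change -0.22, SE 0.03, adjusted p = 5.3e-06), and 321 ± 4.92 CPM in RT4 shFTO and 173 ± 0.489 CPM in RT4 shNC (log2 change 0.90, SE 0.03, adjusted p = 4.6e-14). ELOVL6, which lengthens palmitate, fell to 35.4 ± 1.74 CPM in T24 shFTO, against 51.2 ± 2.61 CPM in T24 shNC (log2 change -0.53, SE 0.045, adjusted p = 1.1e-08). In RT4 it had 66.1 ± 0.941 CPM in shFTO and 71.3 ± 0.953 CPM in shNC (log2 change -0.11, SE 0.042, adjusted p = 0.026). The RT4 call of ELOVL6 was lost without RT4 shFTO replicate 3 (adjusted p = 0.0791) or RT4 shNC replicate 3 (0.0585), and with RLE scaling (0.109), DESeq2 (0.124), thinning (0.208) and the 1 CPM filter (0.0578).

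**Figure D3:**
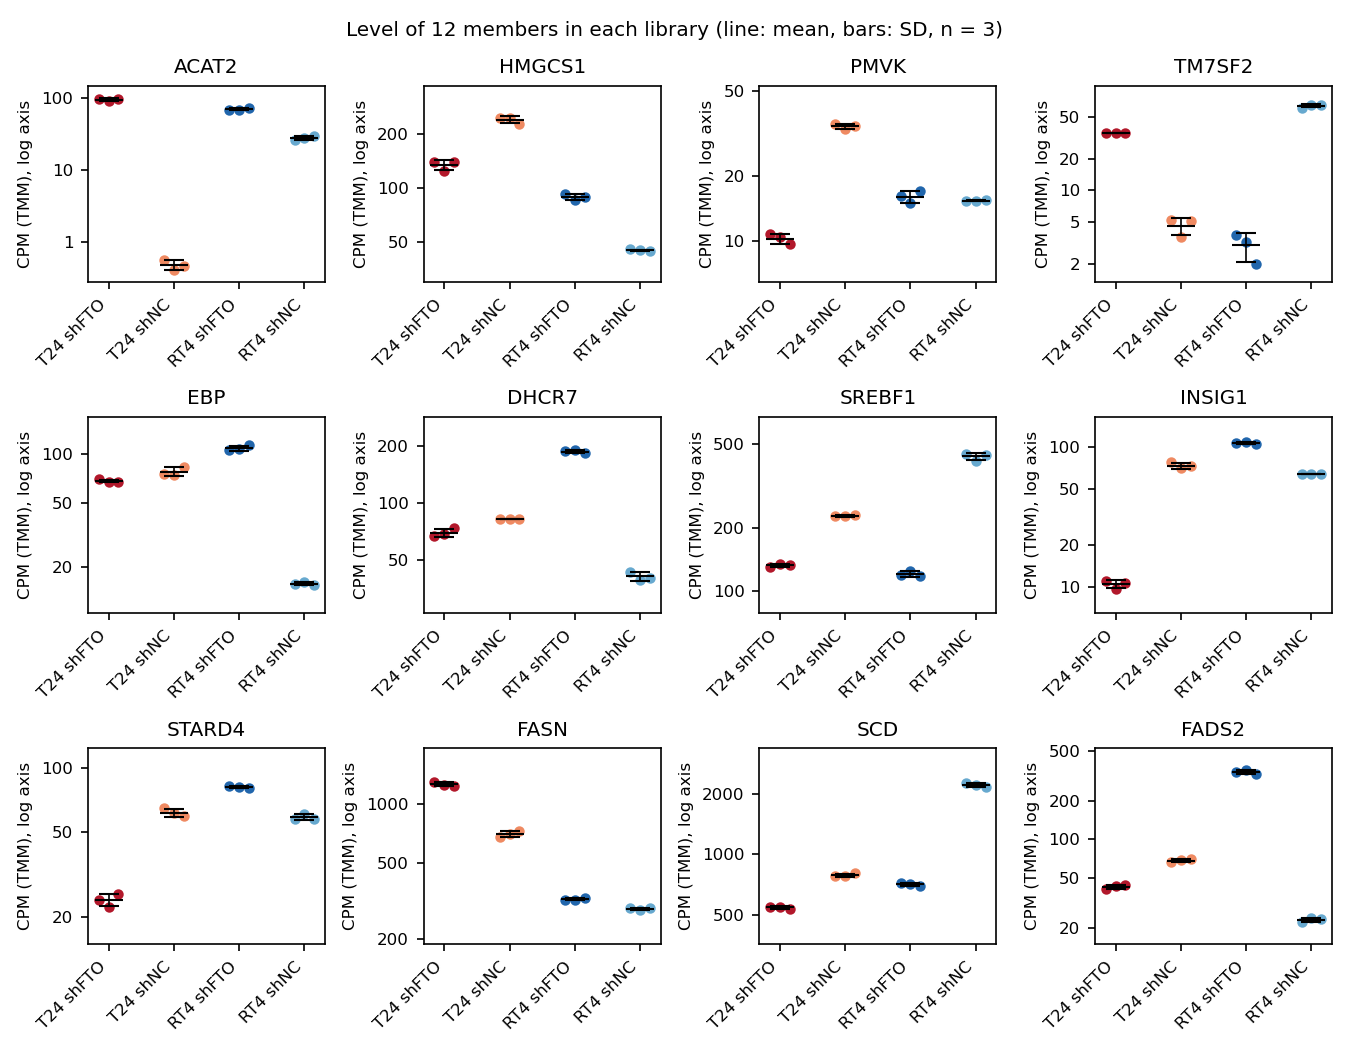
The level of 12 members is shown in each of the 12 libraries, in CPM on a logarithmic axis, with the group mean as a line and the SD as bars (n = 3). ACAT2 is near 0.5 CPM in T24 shNC alone, INSIG1 near 10 CPM in T24 shFTO alone, and FADS2 and DHCR7 are highest in RT4 shFTO.

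The summed level of the 34 members stayed close between the groups, but SCD and FASN weighed heavily in it. Their means were 545 and 1272 CPM in T24 shFTO, and 790 and 701 CPM in T24 shNC. In RT4 they were 710 and 323 CPM in shFTO, and 2210 and 288 CPM in shNC. Of the members, 88.2% were called in T24 and 91.2% in RT4, beside 78.0% and 78.6% of all genes. The sum lay between 4762 and 4895 CPM in T24 shFTO, 4755 and 4875 CPM in T24 shNC, 4542 and 4598 CPM in RT4 shFTO, and 4863 and 4958 CPM in RT4 shNC. The roles within it were distributed differently. Mevalonate genes summed to 617 ± 20.6 CPM in T24 shFTO and 635 ± 1.28 CPM in T24 shNC, and to 456 ± 18.9 CPM in RT4 shFTO and 287 ± 10.5 CPM in RT4 shNC (SD, n = 3). Genes from squalene to cholesterol summed to 925 ± 7.6 CPM in T24 shFTO and 807 ± 6.63 CPM in T24 shNC, and to 1059.9 ± 0.644 CPM in RT4 shFTO and 605 ± 4.74 CPM in RT4 shNC. Control genes summed to less under the shFTO label in both lines, 508 ± 3.45 CPM in T24 shFTO and 683 ± 3.76 CPM in T24 shNC, and 648 ± 7.35 CPM in RT4 shFTO and 851 ± 24.2 CPM in RT4 shNC. SREBF1 alone averaged 121 CPM in RT4 shFTO and 439 CPM in RT4 shNC, while SREBF2, INSIG1 and STARD4 rose in RT4. Fatty acid genes, the largest of the 4 sums in every group, gave 2769 ± 48.1 CPM in T24 shFTO and 2690.2 ± 53.4 CPM in T24 shNC, and 2402 ± 15.1 CPM in RT4 shFTO and 3155 ± 49 CPM in RT4 shNC. SCD alone makes up 2210 CPM of the RT4 shNC value.

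**Figure D4:**
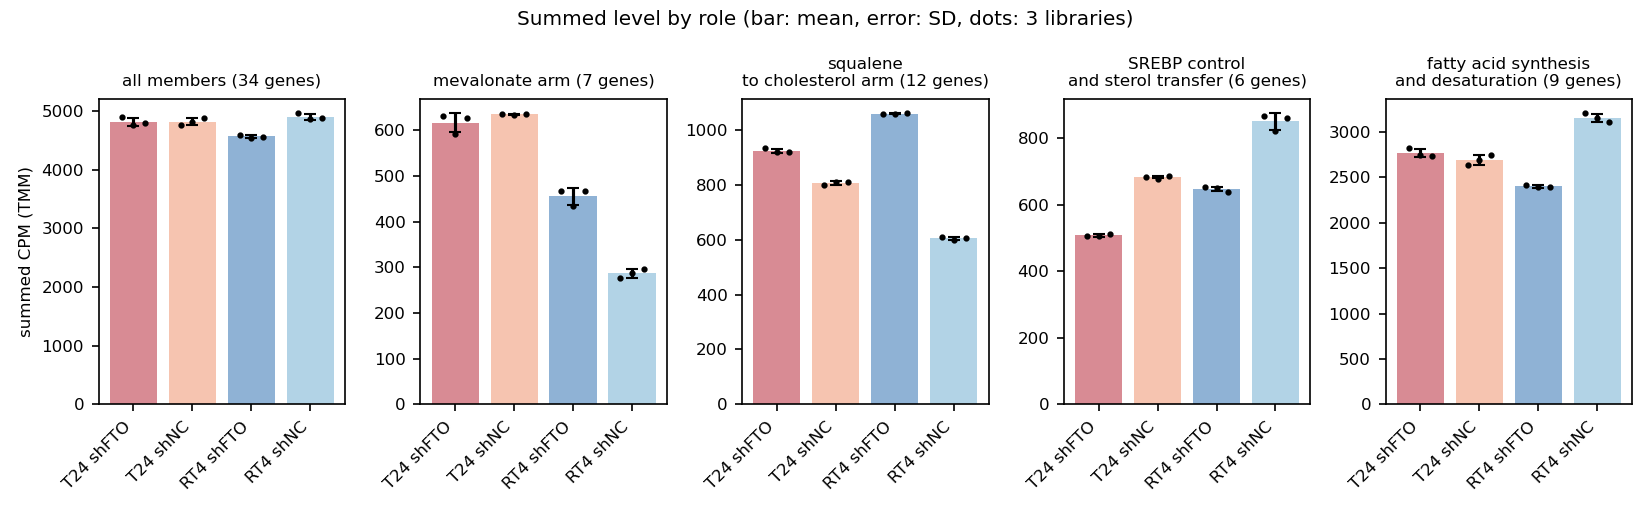
Summed CPM of all 34 members and of each role is shown by group, with bars for the mean, error bars for the SD and dots for the 3 libraries. The total is nearly level across the 4 groups, while sterol genes are lowest and control and fatty acid genes highest in RT4 shNC.

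Set side by side, the groups ranked differently for these genes. RT4 shFTO had the highest mean for 12 of 34 members (35.3%, against 22.6% of all tested genes), T24 shFTO for 10, T24 shNC for 8 and RT4 shNC for 4 (11.8%, against 27.5%). RT4 shNC had the lowest mean for 14 members (41.2%, against 23.4% of all genes), T24 shFTO for 10, T24 shNC for 6 and RT4 shFTO for 4. Between the lines under the shFTO label, 12 members were higher and 19 lower in T24, where 77.5% of all genes were called, 37.8% higher and 39.7% lower, and 11 members differed at least 2-fold, against 49.7% of all genes. Between the controls, 20 were higher and 12 lower in T24 shNC than in RT4 shNC, where 80.1% of all genes were called, 40.3% higher and 39.7% lower, and 18 members differed at least 2-fold, against 51.1% of all genes. The control contrast was widest for ACAT2 (-5.83), TM7SF2 (-3.77), HMGCS1 (2.41) and EBP (2.31 in log2). The control call of IDI1 (adjusted p = 0.04) was lost whenever any one library was left out except T24 shFTO replicate 1, with adjusted p between 0.0507 and 0.25, and without the low-count filter (0.918). That of ELOVL5 (adjusted p = 0.015) was lost with RLE (0.298) or upper-quartile scaling (0.693), the 1 CPM filter (0.157), DESeq2 (0.272) and thinning (0.138), and that of INSIG1 without the low-count filter (0.0988).

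Further genes of the same biology were called in both directions, in shares that are read against the same backgrounds of 78.0% of all genes in T24 (37.2% higher, 40.8% lower) and 78.6% in RT4 (38.6% higher, 40.0% lower). Of 20 tested genes for sterol handling and SREBP processing, 9 rose and 8 fell in T24 shFTO (85.0% called) and 11 rose and 7 fell in RT4 shFTO (90.0% called). LIPA, the lysosomal acid lipase that frees cholesterol from its esters, fell to 17.7 ± 1.05 CPM in T24 shFTO, against 70.7 ± 2.84 CPM in T24 shNC, and rose to 253 ± 2.27 CPM in RT4 shFTO, against 86.7 ± 2.76 CPM in RT4 shNC. CYP27A1, a sterol 27-hydroxylase, rose in both lines, with 37.4 ± 1.98 CPM in T24 shFTO and 1.06 ± 0.0843 CPM in T24 shNC, and 3.75 ± 0.267 CPM in RT4 shFTO and 0.261 ± 0.052 CPM in RT4 shNC. ERLIN1, which takes part in sterol-regulated degradation in the endoplasmic reticulum, and STARD3, a late endosomal sterol transfer protein, rose in both lines as well (log2 0.76 and 0.21 in T24, 1.49 and 1.47 in RT4). Of 13 tested genes of isoprenoid branches, 7 rose and 6 fell in T24 shFTO (100% called) and 8 rose and 3 fell in RT4 shFTO (84.6% called). RCE1 and ICMT, which finish prenylated proteins, had 103 ± 4.03 and 241 ± 5.41 CPM in RT4 shFTO, against 10.5 ± 0.157 and 57.1 ± 2.5 CPM in RT4 shNC. FNTA, a subunit of protein prenyltransferases, rose in T24 (1.08 in log2) and fell in RT4 (-1.04), and NUS1, needed for dolichol synthesis, rose in both (0.98 in T24 and 0.25 in RT4).

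Of 25 tested genes for fatty acid supply and use, 14 rose and 9 fell in T24 shFTO (92.0% called, against 78.0% of all genes) and 15 rose and 7 fell in RT4 shFTO (88.0%, against 78.6%). The acyl-CoA synthetases ACSL5 and ACSL4, which activate long-chain fatty acids, were among the strongest. ACSL5 had 489, 492 and 481 CPM in RT4 shFTO, against 0.666, 0.502 and 0.453 CPM in RT4 shNC, where its counts were 29, 55 and 41. In T24 it had 6.67, 6.56 and 6.58 CPM in shFTO, against 2.19, 1.76 and 1.99 CPM in shNC. Only RT4 shFTO thus held it above 10 CPM. ACSL4 had 666, 667 and 674 CPM in T24 shFTO, against 43.7, 44.6 and 42.1 CPM in T24 shNC (log2 change 3.94, SE 0.033, adjusted p = 2.7e-21). RT4 libraries held it at 289.5 ± 0.465 CPM in shFTO and 88.6 ± 0.98 CPM in shNC. ELOVL2, an elongase of very long polyunsaturated acids, had 229, 237 and 235 CPM in T24 shFTO, against 0.114, 0 and 0 CPM in T24 shNC (4, 0 and 0 counts), and 65.5 ± 3.34 CPM in RT4 shFTO, against 40 ± 0.386 CPM in RT4 shNC. FADS3, next to FADS2 in the desaturase cluster, fell to 15.7 ± 0.62 CPM in T24 shFTO, against 181 ± 8.49 CPM in T24 shNC, and rose to 65 ± 2.05 CPM in RT4 shFTO, against 38.6 ± 1.25 CPM in RT4 shNC.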

How the data were processed

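Per the labels' protocols, Trizol was used to extract RNA, mRNA was purified by its poly(A) tail, and sequencing gave paired reads of 150 bases. The deposited values are whole-number counts per gene, made by the authors with fastp 0.20.0, STAR 2.7.9a and featureCounts 2.0, per the submitters' processing notes, which name the builds mm39, GRCh38 and hg38 without a role. The strand setting, annotation release and handling of multi-mapping reads were not given in the sources used here. Totals of 31291047 to 102798895 counts limit precision mainly for ACAT2 in T24 shNC.

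Groups follow the labels. From the counts, edgeR 4.0.16 (R 4.3.3) was run with TMM scaling, filterByExpr by group and 1 robust quasi-likelihood fit of the 4 groups (with 8 degrees of freedom left and a common BCV of 0.0768). Benjamini-Hochberg adjustment ran over 23070 genes. For the SE, the size of the log2 change was divided by the root of the F statistic. The prior count was 0.125. FTO also had an exact permutation test. The script was tested on simulated data in which few genes changed, a setting unlike these data, where most were called.

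The pairing comes from the labels' batch number, which equals the replicate number. Residuals of same-numbered libraries correlated at 0.101, -0.036 and 0.019 in T24 and at -0.098, -0.022 and -0.02 in RT4, and the block was kept as an alternative. No pair of replicates agreed within sampling noise (chi-squared per degree of freedom 5.47 to 16.3).

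The members and lists were chosen with earlier results of these data known. All 34 members and FTO are named, and up to 4 genes of each further list with the smallest p in T24 or RT4. Neighbours of ACAT2 and TM7SF2 and some genes with shared exon bases were named for their position, and not every overlap is given. The neighbours PNLDC1, TMEM262, ZNHIT2 and FAU, the overlapping gene FEN1, and the markers KRT7, FOXA1, GATA3, PLIN4 and CPS1 were named after their values were seen. Exon lengths and positions are from GENCODE 29 (GRCh38), promoter windows from RefSeq GRCh38.p14. Some genes of this biology are not reported here. Alternatives were upper-quartile and RLE scaling, no filter, at least 1 CPM in 3 libraries, limma-voom (limma 3.58.1), DESeq2 1.42.0, only the 2 groups compared, the replicate block, thinning to the smallest total, a 2-fold threshold and leaving out each library.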

Additional observations from a re-analysis of the deposited data

Results flagged for a closer look

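The change under the shFTO label differed between T24 and RT4 for 33 of the 34 members and for FTO, by an interaction term in edgeR's quasi-likelihood fit at a Benjamini-Hochberg adjusted p under 0.05, where 75.0% of all tested genes differed. The values that follow are log2 differences, T24 change minus RT4 change. FTO differed by -1.04.

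In the mevalonate arm the differences were 6.27 for ACAT2 and 1.33 for MVD, with the higher change in T24. They were -1.81 for HMGCS1, -1.66 for MVK, -1.80 for PMVK, -0.97 for IDI1 and -0.22 for FDPS.

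From squalene to cholesterol, TM7SF2 differed by 7.30, SQLE by 1.15, HSD17B7 by 0.61, CYP51A1 by 0.27 and LBR by 0.18. On the other side stood EBP at -2.99, DHCR7 at -2.44, NSDHL at -2.10, FDFT1 at -1.69, LSS at -1.23 and SC5D at -0.19.

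Among the control genes, SREBF1 differed by 1.08, SCAP by 0.28 and INSIG2 by 0.25, and INSIG1 by -3.57, STARD4 by -1.83 and SREBF2 by -0.36. Both SREBF1 and SCD (1.10) fell in each line, and by more in RT4.

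Among the other fatty acid genes, FASN differed by 0.69, FADS2 by -4.55, ACACB by -1.89, FADS1 by -1.56, ACACA by -1.45, ELOVL5 by -1.11, ACLY by -0.67 and ELOVL6 by -0.42. FADS2 had the largest negative difference and TM7SF2 the largest positive one of the 34 members.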

How the results depend on the processing

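Over 9 alternative settings, 1472 of 1522 values kept their direction and their side of the threshold, and 2048 of 2076 did so over the 12 fits that each leave out 1 library. With the replicate block the counts stayed at 12 higher and 18 lower in T24, 24 and 7 in RT4 and 12 and 21 for the difference, and it changed no other call. Requiring a 2-fold change left 5 higher and 6 lower in T24, 9 and 3 in RT4, 6 and 15 for the difference, 4 and 7 between the shFTO groups, and 13 and 5 between the controls, fewer by construction. Upper-quartile scaling shifted the all-gene median in T24 by -0.106 and in RT4 by -0.107. With that shift it turned the sign of FDPS (-0.076) and SCAP (-0.090) in T24 and PMVK (-0.047) and INSIG2 (-0.045) in RT4, none of them called, and newly called IDI1 (-0.13) and HSD17B7 (-0.20) lower in T24 and MVD (-0.15) lower in RT4. Without the low-count filter, IDI1 in T24 (0.016), PMVK (-0.033) and INSIG2 (-0.028) in RT4 and STARD4 between the controls (-0.018) changed sign. SCAP changed sign between the controls under RLE (0.048), upper-quartile (0.071), the 1 CPM filter (0.040), DESeq2 (0.049), limma-voom (0.0094) and thinning (0.026), and in T24 under the 1 CPM filter (-0.013). SREBF2 between the shFTO groups turned under that filter (-0.0027) and with only the 2 groups fitted (-0.0043), and MVD in RT4 with thinning (0.0064). Leaving out 1 library gave -0.0686 to 0.0044 for IDI1 in T24, -0.0948 to 0.0065 for MVD in RT4, -0.0478 to 0.012 for SCAP between the controls and -0.018 to 0.021 for SREBF2 between the shFTO groups. These are all changes near 0, and the cause was not tested. Depth limits ACAT2 in T24 shNC, at 14 to 22 counts per library.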

Other observations

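Genes around ACAT2 and TM7SF2 were read because these members had the widest differences. On chromosome 6, TCP1 averaged 315 CPM in T24 shFTO and 178 CPM in T24 shNC, and 329 CPM in RT4 shFTO and 289 CPM in RT4 shNC, so the gene that overlaps the end of ACAT2 differed by far less than ACAT2. SOD2, on the other side, averaged 123 CPM in T24 shFTO and 296 CPM in T24 shNC, and 133 CPM in RT4 shFTO and 119.5 CPM in RT4 shNC. On chromosome 11, ZFPL1 averaged 37.8 CPM in T24 shFTO and 17.2 CPM in T24 shNC, and 34.7 CPM in RT4 shFTO and 25.6 CPM in RT4 shNC. SYVN1, a ubiquitin ligase of the endoplasmic reticulum, averaged 88.4 CPM in T24 shFTO and 65.3 CPM in T24 shNC, and 69.2 CPM in RT4 shFTO and 33.5 CPM in RT4 shNC. TMEM262 averaged 1.29 CPM in T24 shFTO and 1.15 CPM in T24 shNC, and 2.06 CPM in RT4 shFTO and 1.23 CPM in RT4 shNC. Other neighbours of TM7SF2 had its order of means within each line, which was not tested. They were higher in T24 shFTO than in T24 shNC and lower in RT4 shFTO than in RT4 shNC. VPS51, given above, was one. ZNHIT2 averaged 10.5 CPM in T24 shFTO and 6.22 CPM in T24 shNC, and 5.44 CPM in RT4 shFTO and 8.23 CPM in RT4 shNC. FAU averaged 226 CPM in T24 shFTO and 151 CPM in T24 shNC, and 136 CPM in RT4 shFTO and 181 CPM in RT4 shNC.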
